A study of Mus musculus with 11 samples.

Results

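The nuclear genes of respiratory complex I described here are the 48 protein-coding genes whose mouse symbol begins with Nduf followed by a, b, c, s, v or af, out of 55414 gene identifiers in the tables. The rule uses the symbol and no measured value. Complex I of the respiratory chain, NADH:ubiquinone oxidoreductase, takes electrons from NADH in the mitochondrial matrix, passes them along iron-sulfur clusters to ubiquinone and pumps protons across the inner membrane. Its catalytic core is made partly from nuclear genes and partly from the mitochondrial genome, and accessory subunits and assembly factors, all of them nuclear, surround and build it. Cardiac muscle, which depends on oxidative metabolism, is rich in the complex. The 48 genes comprise 7 nuclear subunits of the catalytic core, 9 accessory subunits of the matrix arm, 21 accessory subunits of the membrane arm and 8 assembly factors. Ndufa4, a subunit of cytochrome c oxidase (complex IV), and Ndufa4l2, its hypoxia-induced relative, carry the name without being subunits of complex I. Ndufb4c is an intronless copy of Ndufb4, so the split of reads between the pair is uncertain, and both are described with that limit. A further 3 symbols of the same pattern were pseudogenes and were not counted as members.

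RNA was sequenced in bulk from the apex of C57BL/6 mouse hearts in 11 libraries. No irradiation was given in 4 libraries (NR), and the apex had received a focal dose of 40 Gy 2 weeks earlier as standard proton radiotherapy in 4 libraries (S-PRT) or as ultra-high dose rate FLASH proton radiotherapy in 3 (F-PRT, numbered 2 to 4). Nothing in the labels ties a library to its own animal. Each p-value therefore describes variation among the sequenced libraries, and that variation could be technical. The design asks how each modality changed the tissue. Library totals ran from 20758170 to 40136578 expected counts, the read numbers that RSEM assigns to a gene. Mitochondrially encoded genes took 37.0 ± 5.60% of the counts of NR libraries (SD, n = 4), 41.2 ± 2.86% of S-PRT (n = 4) and 32.7 ± 9.09% of F-PRT (n = 3), with the lowest share, 24.2%, in F-PRT 4. Transcripts of cardiomyocyte markers such as Myh6 and Tnnt2 were abundant in every group, with a sum over 10 genes of 39150 to 54977 TPM (transcript abundance scaled to a fixed total per library) in NR, 39363 to 45387 in S-PRT and 43916 to 77698 in F-PRT.

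Complex I mRNAs were among the abundant messages of the unirradiated apex and differed widely by role. TPM, which divides by length and allows genes to be compared, averaged 1679 ± 73.9 for Ndufa4 (SD, n = 4), the highest member and a subunit of complex IV. Ndufa5, an accessory subunit of the matrix arm, followed at 842 ± 63.3 TPM and Ndufa3, of the membrane arm, at 816 ± 118 TPM. The lowest members were Ndufa4l2 at 11.8 ± 3.79 TPM, Ndufaf5, which hydroxylates an arginine of Ndufs7, at 12.98 ± 1.98 TPM and Ndufaf6, a factor of the peripheral arm, at 16.2 ± 3.08 TPM. The median gene of the catalytic core stood at 450 ± 64.6 TPM, that of the matrix arm at 392 ± 48.1, that of the membrane arm at 418 ± 52.3 and that of the Ndufaf assembly factors at 24.8 ± 5.67. The assembly factors thus formed a low tier below the structural subunits. Between neighbours in the NR order, the ranges of the 4 libraries were separate in 4 of 47 pairs (Ndufa4 above Ndufa5, Ndufc2 above Ndufb1, Ndufb1 above Ndufb4, Ndufb4 above Ndufaf8) and overlapped in the other 43.

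**Figure D1:**
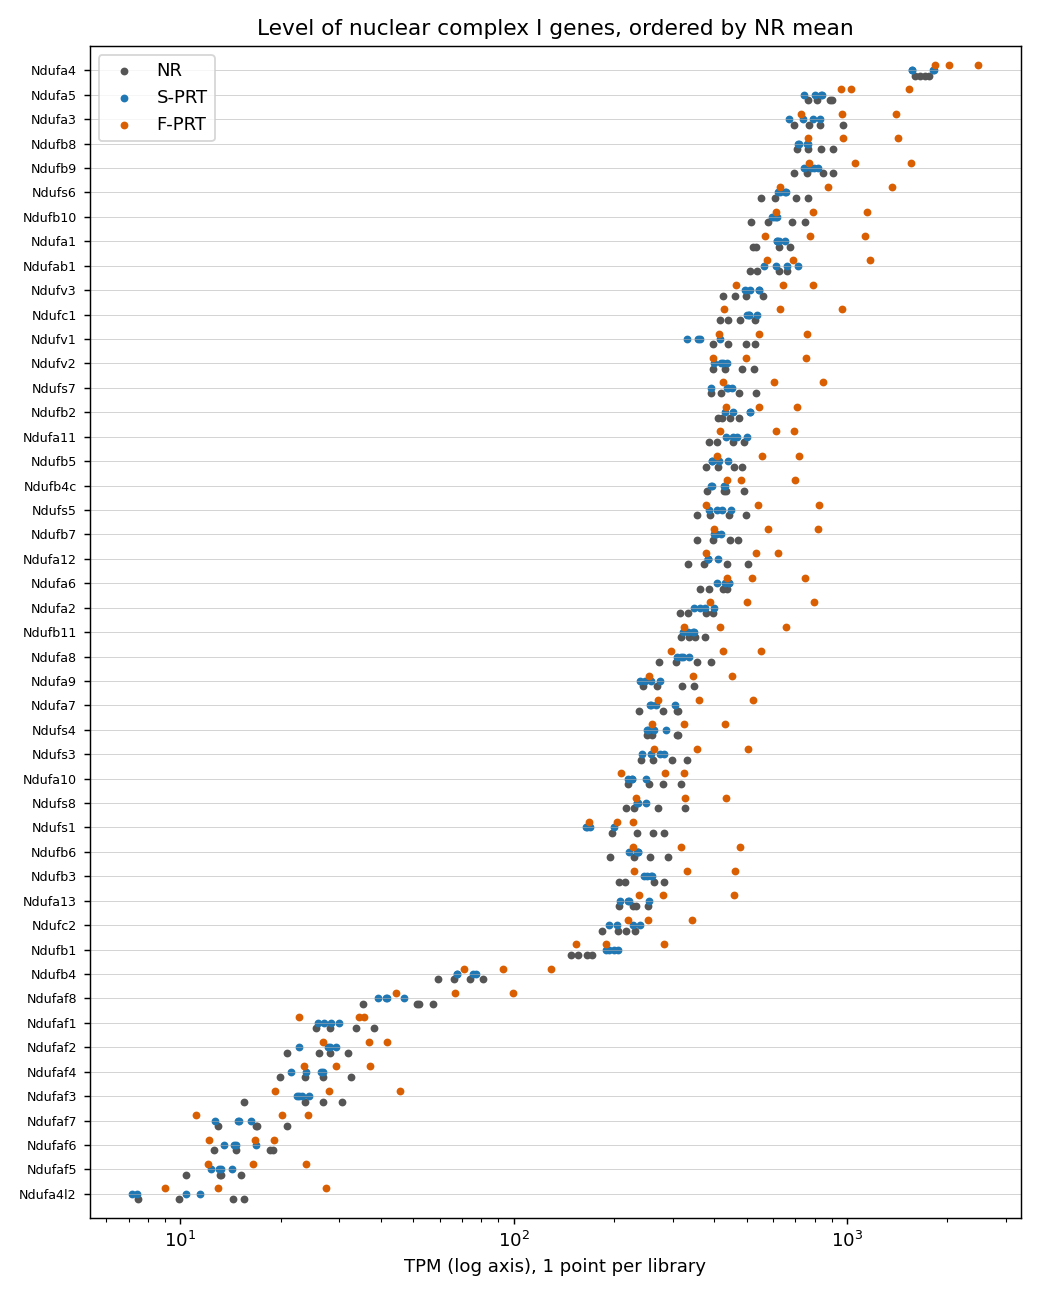
TPM of 47 of the 48 genes on a log axis, 1 point for each library, with NR in grey, S-PRT in blue and F-PRT in orange, ordered by the NR mean. Structural subunits lie between 70.0 (Ndufb4) and 842 TPM (Ndufa5) in the NR mean, the Ndufaf assembly factors between 12.98 and 48.9, and the points of the 3 groups overlap for most genes.

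The summed level of the 48 genes was highest in F-PRT 4. Their TPM summed to 15617, 16899, 18775 and 20327 in NR 1 to 4, to 17864, 17646, 16887 and 17428 in S-PRT 1 to 4 and to 22270, 17272 and 31416 in F-PRT 2 to 4. F-PRT 3 lay within the NR range and the other F-PRT libraries lay above it. As a share of the counts outside the mitochondrial genome, the members took 1.57 ± 0.0299% of NR, 1.69 ± 0.132% of S-PRT and 1.93 ± 0.314% of F-PRT, and there F-PRT 2, 3 and 4 held 1.76, 1.74 and 2.30%. On that share every F-PRT library exceeded the highest NR library, at 1.60%, and so did S-PRT 1, 2 and 3 (1.84, 1.76 and 1.62%). S-PRT 4 held 1.55%, and S-PRT 1 also exceeded F-PRT 2 and 3. In bulk tissue, fewer cells of a type and less RNA per cell cannot be told apart.

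After FLASH irradiation, 25 of the 48 genes rose against NR and none fell, by 0.36 to 0.68 on the log2 scale (1.28-fold to 1.60-fold). The call was an adjusted p under 0.05 in edgeR's quasi-likelihood test with Benjamini-Hochberg adjustment over the 14556 genes tested. By that rule 19.5% of all tested genes were called in either direction, 10.8% higher and 8.67% lower. The median member changed by 0.41, against 0.03 over all tested genes, and 46 of 48 members had positive values, where 52.8% of all genes did. In CPM (counts scaled to a common library size), all F-PRT libraries lay above all NR libraries for 35 members, among them all 25 that rose (17.5% of all genes), and below them for 1 member, Ndufs1 (13.9% of all genes). The rises were spread over the roles: 3 of 7 catalytic core subunits, 7 of 9 accessory subunits of the matrix arm, 14 of 21 of the membrane arm and 1 of 8 Ndufaf assembly factors. Without F-PRT 4 the count fell to 2 of 48 (Ndufa11 and Ndufa2) where 9.56% of all genes were called. Without NR 1, 2, 3 or 4 it was 9, 9, 7 and 3 of 48, with 9.67, 11.4, 11.6 and 11.3% of all genes called. In the fits without F-PRT 4 or NR 4, the share of members called was below that of all genes. Without S-PRT 3, which shares the estimate of the spread, 15 rose and Ndufs1 fell, 16 calls in all (17.1% of all genes).

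**Figure D2:**
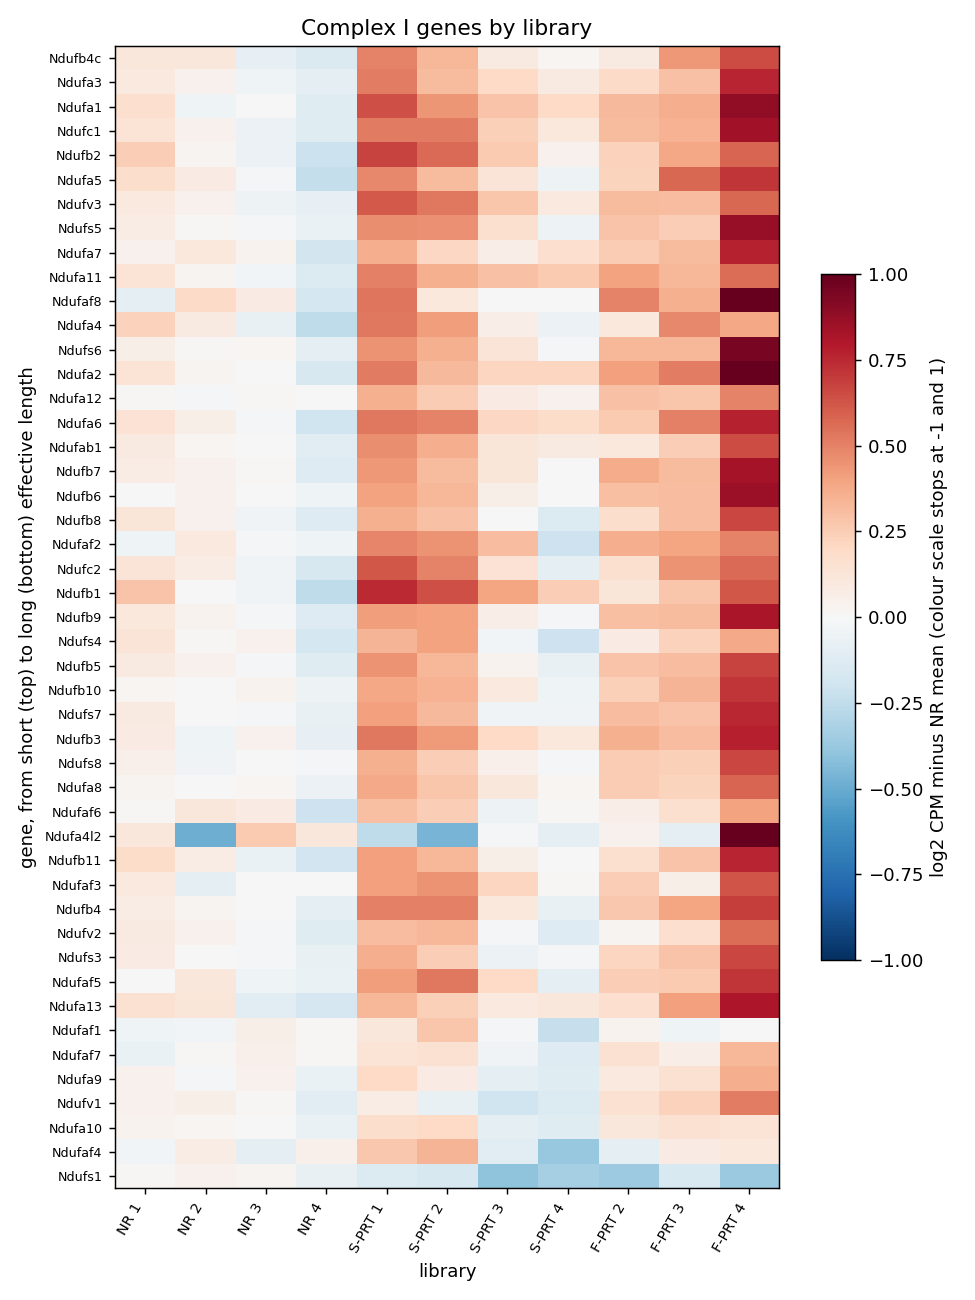
Log2 CPM of each gene minus its mean over the 4 NR libraries, with 1 column for each library and 1 row for each of 47 genes from the shortest to the longest effective length. F-PRT 4 is the highest of all 11 libraries for 38 of all 48 genes, and S-PRT 1 and 2 lie above S-PRT 3 and 4 for 47.

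The accessory subunits of the matrix arm, which scaffold the NADH-oxidising and ubiquinone-reducing modules, gave the largest single change. Ndufa2, a subunit with a thioredoxin-like fold, measured 142, 132, 129 and 116 CPM in the NR libraries, 186, 162, 150.4 and 149.98 in S-PRT and 172, 184 and 266 in F-PRT. F-PRT 4 was far above the rest, yet F-PRT 2 and 3 also exceeded each NR library. Its log2 fold change was 0.68 ± 0.14 (SE, as for each log2 fold change given with an error) with an edgeR adjusted p of 0.01102. Ndufs6, a zinc-binding subunit, measured 245, 237, 238 and 220.2 CPM in the NR libraries, 320.1, 300.2, 257 and 231 in S-PRT and 296, 296 and 453 in F-PRT, and again F-PRT 4 stood apart while F-PRT 2 and 3 were alike. It rose by 0.57 ± 0.15 on the log2 scale (edgeR adjusted p = 0.0242). Ndufa6, a member of the LYR protein family that binds the mitochondrial acyl carrier protein, rose by 0.52 ± 0.13 (edgeR adjusted p = 0.0204), and Ndufa12, which takes the place of the assembly factor Ndufaf2 late in assembly, by 0.36 ± 0.09 (0.0207). Ndufa7 rose by 0.47 ± 0.12 (edgeR adjusted p = 0.0239), and Ndufa5 and Ndufv3 were the other matrix-arm genes that passed. Ndufa9 and Ndufs4 did not pass, with log2 fold changes of 0.21 ± 0.10 and 0.23 ± 0.14. Ndufs4 is the subunit whose loss in mice gives a Leigh-like disease.

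In the membrane arm, Ndufa11, a subunit at the junction with complex III in the supercomplex, measured 158, 146, 141 and 130.3 CPM in the NR libraries, 204, 183, 176 and 172 in S-PRT and 190.04, 181 and 211 in F-PRT. The F-PRT libraries lay close together here and all exceeded the NR range, as did all S-PRT libraries. It rose by 0.43 ± 0.09 in F-PRT (edgeR adjusted p = 0.0124). Ndufb7, a subunit of the intermembrane-space face held by disulfide bonds, rose by 0.53 ± 0.14 (edgeR adjusted p = 0.02101), Ndufb3 by 0.50 ± 0.13 (0.0221) and Ndufa1 by 0.54 ± 0.14 (0.0231). A further 10 genes of this arm passed, among them Ndufb4, whose reads are shared with Ndufb4c. Summed over the pair, the level was 119 to 139 CPM in NR, 128 to 184 in S-PRT and 146, 174 and 207 in F-PRT 2 to 4, so the F-PRT values lay above the NR values for the sum as well. The 7 genes of the arm that did not pass were Ndufb8, Ndufb11, Ndufab1 (the mitochondrial acyl carrier protein), Ndufb2, Ndufc2, Ndufb1 and Ndufa10, with values from 0.13 (Ndufa10) to 0.42 (Ndufb11).

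Among the nuclear genes of the catalytic core, Ndufs7, Ndufs8 and Ndufs3 rose. Ndufs7, which carries the last iron-sulfur cluster before ubiquinone, measured 272, 255, 253 and 243 CPM in the NR libraries, 340.04, 319, 249 and 250.1 in S-PRT and 317, 312 and 431 in F-PRT. Its log2 fold change was 0.47 ± 0.14 (edgeR adjusted p = 0.0357), and F-PRT 2 and 3 lay below S-PRT 1 and 2. Ndufs8, another iron-sulfur subunit, changed by 0.40 ± 0.12 (edgeR adjusted p = 0.0335) and Ndufs3, a core subunit of the ubiquinone-reducing module, by 0.40 ± 0.13 (0.0436). Ndufv1, the flavin subunit that oxidises NADH, gave 0.30 ± 0.11 (edgeR adjusted p = 0.0657), and Ndufv2, the partner of Ndufv1, 0.27 ± 0.14 (0.196), and neither passed.

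Ndufs1, the largest core subunit and a carrier of iron-sulfur clusters of the NADH-oxidising module, went the other way. It measured 612, 626, 619.9 and 576 CPM in the NR libraries, 553, 543, 460.1 and 484 in S-PRT and 473, 546 and 471 in F-PRT. All libraries of both irradiated groups lay below all NR libraries. The log2 fold change was -0.29 ± 0.10 in F-PRT (edgeR adjusted p = 0.0534) and -0.25 ± 0.09 in S-PRT (0.166), so it passed the threshold in neither comparison, and both comparisons use the same NR libraries. Within a library, the log2 ratio of Ndufs1 TPM to the median of the other 6 core genes averaged -0.90 ± 0.05 over the NR libraries (SD, n = 4), -1.12 ± 0.05 over S-PRT (n = 4) and -1.45 ± 0.24 over F-PRT (n = 3), and the 3 groups did not overlap. The same ratio for Ndufv1 averaged 0.35 ± 0.03 over NR, 0.15 ± 0.09 over S-PRT and 0.32 ± 0.04 over F-PRT, with S-PRT below both other groups. These ratios were looked at after the gene values had been seen and carry no test. Ndufs1 itself averaged 244 TPM over NR, 175 over S-PRT and 200 over F-PRT. Its log2 fold change between the modalities was -0.04 ± 0.10. The lower ratio in F-PRT than in S-PRT thus came with higher TPM of the other core genes, not with lower Ndufs1. Ndufs1 also has the longest effective length of the 48, 2357 bases. Its expected counts were whole numbers in 0 of the 11 libraries, so some reads were shared with another gene and their split is uncertain. Of the 48 members, 33 had whole counts in all libraries.

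**Figure D3:**
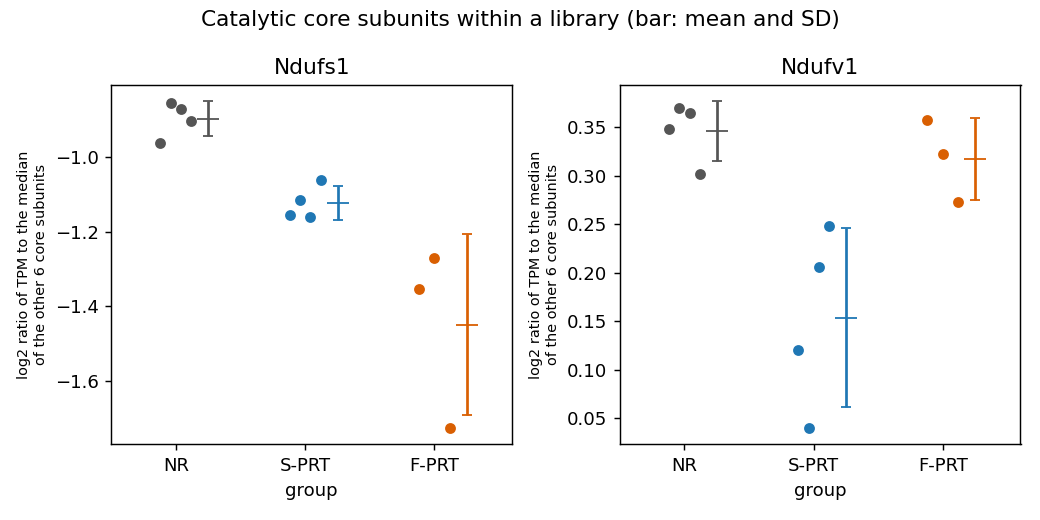
Log2 ratio of the TPM of Ndufs1 (left) and Ndufv1 (right) to the median TPM of the other 6 core subunits in the same library, with 1 point for each library and the group mean and SD beside them. Ndufs1 ratios lie between -0.96 and -0.86 in NR, -1.16 and -1.06 in S-PRT and -1.73 and -1.27 in F-PRT.

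Of the Ndufaf assembly factors, only Ndufaf8, which stabilises Ndufaf5, passed in F-PRT. It measured 14.96, 18.2, 16.9 and 14.1 CPM in the NR libraries, 23.2, 17.2, 16.1 and 15.97 in S-PRT and 22.6, 20.4 and 32.5 in F-PRT. The 3 F-PRT libraries were above the NR range, and S-PRT 1 was also above it. The log2 fold change was 0.66 ± 0.17 (edgeR adjusted p = 0.02201). Ndufaf1, a member of the intermediate-assembly complex of the membrane arm, stood at -0.00 ± 0.10 (edgeR adjusted p = 0.994) and Ndufaf4 at 0.03 ± 0.14 (0.894), the smallest values after Ndufs1. Ndufa4 measured 720.3, 653, 581 and 515 CPM in the NR libraries, 884, 817, 641 and 589 in S-PRT and 661, 853 and 800.1 in F-PRT, with overlapping groups and a log2 fold change of 0.32 ± 0.16 (edgeR adjusted p = 0.167). Ndufa4l2 measured 9.17, 6.02, 10.2 and 9.19 CPM in the NR libraries, 7.11, 6.11, 8.37 and 7.96 in S-PRT and 8.74, 7.95 and 18.04 in F-PRT, and its F-PRT value of 0.43 ± 0.26 (edgeR adjusted p = 0.244) comes with F-PRT 2 and 3 inside the NR range.

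Promoter windows from RefSeq, running from 250 bases before to 50 bases after the start (build GRCm38.p6), were found for 41 of the 48 genes, and a gene with more than 1 window counts once. They were searched on both strands for the cores of motifs named for regulators of respiratory genes. The NRF1 core GCATGCGC was found in 5 of the 41 genes (12.2%), against 3.04% of 26984 other genes. Those are all other genes with a window, not limited to protein-coding or expressed genes as the members are. The YY1 core AAGATGGC was in 8 (19.5%, against 3.17%), the ETS core CCGGAAG of GABP in 6 (14.6%, against 9.92%) and the ERR core AAGGTCA in 3 (7.32%, against 5.38%). At least 1 of the 4 was found in 21 genes (51.2%, against 19.6%). A match describes letters and is not a binding site. The windows below are those of the genes with the smallest p in F-PRT that hold the NRF1, ETS and YY1 cores, with every match to the 4 cores in capitals.
Ndufa11 (chr17:56717512-56717811, plus strand): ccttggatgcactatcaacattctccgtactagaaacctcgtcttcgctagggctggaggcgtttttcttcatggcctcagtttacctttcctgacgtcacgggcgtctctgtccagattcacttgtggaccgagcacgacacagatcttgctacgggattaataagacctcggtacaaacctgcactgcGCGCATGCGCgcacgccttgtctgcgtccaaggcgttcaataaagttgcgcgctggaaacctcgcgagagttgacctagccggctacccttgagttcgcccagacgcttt
Ndufb7 (chr8:83566508-83566807, plus strand): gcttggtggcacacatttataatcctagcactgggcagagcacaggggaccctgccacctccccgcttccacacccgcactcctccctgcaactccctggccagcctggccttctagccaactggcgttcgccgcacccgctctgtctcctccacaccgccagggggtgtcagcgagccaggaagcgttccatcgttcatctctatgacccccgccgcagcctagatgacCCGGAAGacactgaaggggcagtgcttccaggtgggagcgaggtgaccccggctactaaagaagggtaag
Ndufaf8 (chr11:120098684-120098983, plus strand): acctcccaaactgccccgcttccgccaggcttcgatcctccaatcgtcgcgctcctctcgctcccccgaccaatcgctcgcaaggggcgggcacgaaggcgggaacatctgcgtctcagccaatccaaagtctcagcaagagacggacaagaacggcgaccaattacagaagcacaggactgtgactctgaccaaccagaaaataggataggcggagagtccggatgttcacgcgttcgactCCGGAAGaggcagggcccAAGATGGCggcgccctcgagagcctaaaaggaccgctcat
In Ndufa11 the capitals are the NRF1 core read on both strands, whose matches overlap because the core is nearly palindromic. Ndufb7 holds the ETS core, and Ndufaf8 holds an ETS core and a YY1 core. Ndufa1, Ndufa7, Ndufa12 and Ndufb3 also rose in F-PRT, and their windows held none of the 4 cores.

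After standard proton radiotherapy, no member passed the threshold against NR, where 1.29% of all tested genes did (188 of 14556). At an unadjusted p under 0.05 there were 14 members (18.3% of all genes), and DESeq2's test called 3, Ndufa11, Ndufb1 and Ndufv3 (4.79% of all genes). The median member changed by 0.21, against 0.01 over all genes, and 44 of 48 values were positive (51.3% of all genes). All S-PRT libraries exceeded all NR libraries for 8 members (7.34% of all genes), Ndufa1, Ndufa2, Ndufa6, Ndufa11, Ndufa12, Ndufab1, Ndufb3 and Ndufv3, and lay below them for Ndufs1 (6.71%). On the TPM scale the median member changed by -0.04 while that of all genes changed by -0.13, so its sign turned although it stayed above the rest by 0.09.

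Same-numbered NR and S-PRT libraries deviated together from their group means, with correlations of 0.11 to 0.22 in the 4 pairs, and the number was therefore tried as a block. The 12 pairs of unlike numbers ran from -0.28 to 0.30, so that some deviated together as much as the same-numbered pairs. The block was picked from these same data, so the calls it gave cannot serve as support for a change. From library 1 to 4 the mitochondrial share also fell, from 43.8 to 30.6% in NR and from 43.5 to 37.1% in S-PRT. In a fit of these 2 groups alone with the block, 11 members rose in S-PRT and none fell (9.8% of all genes called, 6.57% higher), and without the block that fit called 1 member (4.01%). In the fit of all 11 libraries with the block, no member was called (0.412% of all genes). With the trend with effective length also removed there, again no member was called (0.055%). The 11 members that rose in the 2-group fit had effective lengths of at most 542 bases. Ndufb1, a small membrane-arm subunit, measured 97.01, 79.5, 77.4 and 66.8 CPM in the NR libraries, 133, 125, 105 and 94.3 in S-PRT and 86.5, 96.3 and 122 in F-PRT. S-PRT 4 lies inside the NR range. Each S-PRT library exceeds the NR library of its number, but no label states that libraries are paired by number. With the block its log2 fold change was 0.51 ± 0.06 (edgeR adjusted p = 0.00212), and without it 0.51 ± 0.14 (0.1005). Ndufa11 gave 0.36 ± 0.06 (edgeR adjusted p = 0.00803) with the block and 0.36 ± 0.09 (0.0698) without it. The others were Ndufa1, Ndufa2, Ndufa3, Ndufa6, Ndufab1, Ndufb2, Ndufb3, Ndufc1 and Ndufv3, with 0.26 to 0.51 over the 11, and 8 of the 11 were among the 25 that rose in F-PRT, a comparison with the same NR libraries. The smallest values without the block were Ndufs1, Ndufa4l2 (-0.22) and Ndufv1 (-0.08), and the largest after Ndufb1 were Ndufb2 (0.40) and Ndufa1 (0.40). By role, the median was 0.14 over the 7 genes of the catalytic core, 0.22 over the matrix arm, 0.27 over the membrane arm and 0.15 over the Ndufaf factors. The median effective lengths were 808, 351, 461 and 838 bases in that order. With the trend with effective length removed, the 4 medians were -0.07, -0.07, -0.01 and -0.03. Within S-PRT, libraries 1 and 2 exceeded libraries 3 and 4 for 47 of 48 members.

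Between the 2 modalities no member passed, and none of the 14556 genes did (0.0%). At an unadjusted p under 0.05 there were 7 members (15.9% of all genes), and DESeq2's test called 1, Ndufv1 (1.15%). Ndufv1 measured 647, 654, 636 and 581 CPM in the NR libraries, 662, 597, 548 and 571 in S-PRT and 699, 737 and 896 in F-PRT. It was the only member whose F-PRT libraries all exceeded all S-PRT libraries (5.45% of all genes), with a log2 fold change of 0.39 ± 0.11 and an edgeR adjusted p of 0.185. The median member was 0.17 higher in F-PRT and 44 of 48 values were positive (50.4% of all genes), with values from -0.17 (Ndufb1) to 0.66 (Ndufa4l2), followed by Ndufaf8 at 0.49. The lowest after Ndufb1 were Ndufaf1 at -0.04 and Ndufs1 at -0.04. Without F-PRT 4 the median was 0.05.

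The members are short transcripts, and effective length, the number of positions at which a fragment can start, moved with the result in all genes. The median effective length was 483 bases over the members and 2389 over all tested protein-coding genes. Across the 13149 other protein-coding genes the log2 fold change against NR had a Spearman correlation with effective length of -0.40 in S-PRT and -0.59 in F-PRT, and across the 48 members of -0.68 and -0.60. For F-PRT against S-PRT it was -0.50 across the other genes and -0.04 across the members. These are descriptions over genes of the same libraries, which are not independent. Of the 39 members under 1000 bases, 24 rose in F-PRT, and of the 9 at or above 1000 bases 1 did, Ndufa13.

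Set beside genes of similar length, the members' median changes were closer than beside all genes. The 2409 other protein-coding genes between 261 and 1233 bases (the 10th and 90th percentiles of the members) had a median log2 fold change of 0.36 in F-PRT, with 35.8% called higher, against 0.43 and 57.9% for the 38 members within that range. In S-PRT the medians were 0.17 and 0.21, and between the modalities 0.17 and 0.19, in the same order. Between 250 and 500 bases, where 21 members lie, 13 members rose (median 0.43), against 58.5% of 287 other genes (median 0.50). Between 500 and 750 bases, 7 of 11 members rose (median 0.43), against 47.7% of 576 others (median 0.43). Ndufs1 lay below its neighbours in length, whose medians between 2250 and 2500 bases were -0.01 in S-PRT and 0.00 in F-PRT.

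**Figure D4:**
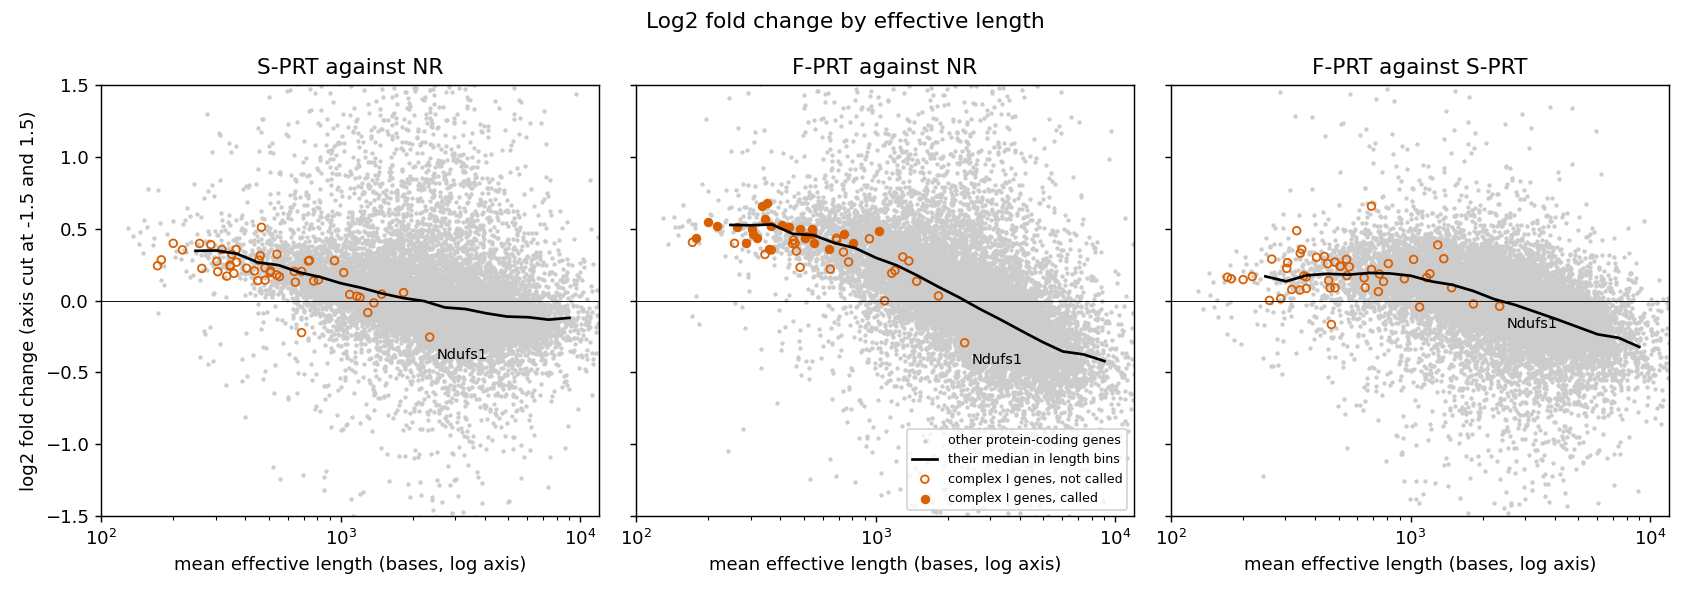
Log2 fold change against mean effective length in bases on a log axis, for the 3 comparisons, with other protein-coding genes in grey, their median in length bins as a line, and the 48 genes in orange (filled where called). In F-PRT against NR the members follow the line, and Ndufs1 lies below it in both comparisons with NR.

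The same libraries stood high in both sets of genes. The members' median log2 CPM stood 0.42, 0.33, 0.09 and -0.02 above the NR mean in S-PRT 1 to 4, and that of the genes of similar length 0.25, 0.21, 0.15 and 0.06. In F-PRT 2, 3 and 4 the members stood 0.23, 0.30 and 0.67 above it and the genes of similar length 0.28, 0.21 and 0.55. Both sets were highest in F-PRT 4, the library with the lowest mitochondrial share.

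When the trend with effective length was removed in each library, no member passed in any comparison. Of all genes 0.302% then passed in S-PRT against NR, 3.39% in F-PRT against NR and 0.0% between the modalities. At an unadjusted p under 0.05 there were 3, 3 and 4 members in that order, against 14.9, 22.2 and 11.1% of all genes. The median member was then -0.00 in F-PRT, -0.05 in S-PRT and 0.03 between the modalities. Of the 25 that rose, 18 kept a positive value and 7 turned negative (Ndufa3, Ndufa7, Ndufa8, Ndufa11, Ndufa12, Ndufs8 and Ndufv3, between -0.08 and -0.00). The largest values were then Ndufa2 at 0.22 ± 0.08 (edgeR adjusted p = 0.134), Ndufa13, also known as GRIM-19, at 0.20 ± 0.11 (0.316) and Ndufaf8 at 0.18 ± 0.11 (0.357). The smallest were Ndufs1, nearly as before at -0.29 ± 0.10 (edgeR adjusted p = 0.106), and Ndufaf1 at -0.26 ± 0.09 (0.137). On the log2(TPM + 1) scale, limma called no member in F-PRT against NR at a median of 0.35 (0.488% of all genes called), and 11 had an unadjusted p under 0.05 (15.1%). All F-PRT libraries exceeded all NR libraries in TPM for 3 members (2.67% of all genes).

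**Figure D5:**
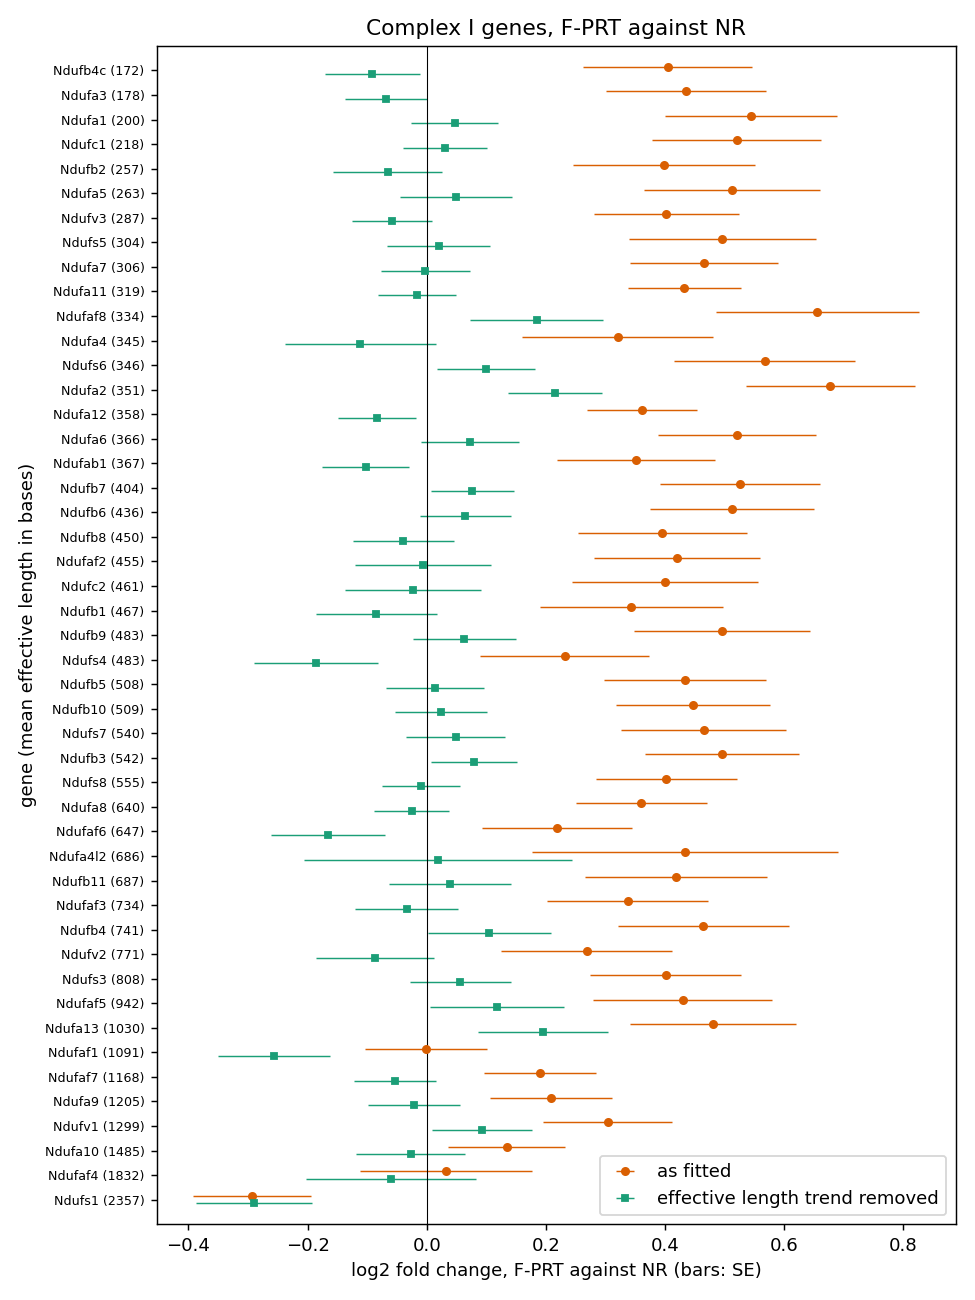
Log2 fold change of F-PRT against NR for 47 of the 48 genes, each with its SE, as fitted (orange circles) and with the effective length trend removed (green squares), ordered by effective length in bases. The median of all 48 moves from 0.41 to -0.00, while Ndufs1 stays at -0.29.

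The mitochondrially encoded subunits of the same complex make up the proton-pumping part of the membrane arm. Their values were mostly negative in F-PRT as a group, but F-PRT 3 differed from F-PRT 2 and 4. Of 7 mt-Nd genes, 5 had negative values in F-PRT against NR, with a median of -0.29, and 1 fell (8.67% of all genes called lower), mt-Nd4l. It measured 1412, 1209, 954 and 711 CPM in the NR libraries, 1313, 1082, 1102 and 1142 in S-PRT and 360.1, 848 and 242 in F-PRT. F-PRT 2 and 4 were low and F-PRT 3 lay inside the NR range, for a log2 fold change of -1.15 ± 0.35 (edgeR adjusted p = 0.0376). The second smallest p was that of mt-Nd5 (-0.95 ± 0.41, edgeR adjusted p = 0.111). In S-PRT 6 of 7 were positive with a median of 0.26 and none passed. In the fit of NR and S-PRT alone with the replicate block, mt-Nd2 and mt-Nd3 rose (6.57% of all genes called higher). That block was picked from these same data. Between the modalities all 7 were lower in F-PRT (median -0.64) with none passing. In F-PRT 3 none of the 7 lay below the NR range, and mt-Nd3 and mt-Nd6 lay above it (1487 and 11051 CPM). The 7 are part of each library's mitochondrial share (31.6, 42.3 and 24.2% in F-PRT 2, 3 and 4). Their values are therefore not independent. With the effective length trend removed, the medians were -0.58 in F-PRT against NR, 0.09 in S-PRT against NR and -0.76 between the modalities. Then mt-Nd4l still passed in F-PRT against NR (-1.59, edgeR adjusted p = 0.0404), where 3.39% of all genes did. mt-Nd4l has an effective length of only 86 bases and overlaps mt-Nd4 in the genome, so the split of reads between them is uncertain.

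Some nuclear genes of the other respiratory complexes also rose in F-PRT. In F-PRT against NR, 3 of 13 subunits of complexes II and III rose (Uqcr10, Uqcr11 and Uqcrq, median of the list 0.29), 3 of 11 of complex IV (Cox4i1, Cox6b1 and Cox8b, median 0.42) and 8 of 15 of complex V (median 0.37), and none fell. Of all tested genes 10.8% were called higher there, and of the other protein-coding genes between 261 and 1233 bases 35.8%. In S-PRT none of these lists had a call in the fit of all libraries. A fit of NR and S-PRT alone used the replicate block picked from these same data. In that fit 11 complex I genes rose and 6.57% of all genes were called higher. There 3 of the 13 (Uqcr10, Uqcr11 and Uqcrq), 4 of the 11 (Cox6c, Cox7a2, Cox7b and Cox8b) and 4 of the 15 (Atp5e, Atp5j, Atp5k and Atp5l) rose and none fell. Of 10 assembly factors of complex I without an Nduf name, 1 rose in F-PRT, Dmac1, a factor of the distal membrane arm, by 0.48 ± 0.11 (edgeR adjusted p = 0.01295). Their median was 0.09, and Timmdc1, another membrane-arm factor, stood at 0.32 ± 0.11 (0.0549). With the length trend removed, the medians of the 3 lists of other complexes were -0.02, -0.03 and -0.02 in the same order, with no call.

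Some markers of the cell types in the tissue passed the test. In F-PRT against NR, 10.8% of all genes were called higher and 8.67% lower. There 1 of 10 cardiomyocyte markers rose (Myl3, 0.47) and 1 fell (Ryr2, -0.86). Further, 1 of 7 fibroblast markers fell (Pdgfra, -1.34), 1 of 7 endothelial markers fell (Tek, -1.19) and 2 of 7 macrophage markers rose (Ccr2, 2.18, and C1qa, 0.91). All 7 fibroblast markers had negative values there (median -0.54, and -0.33 with the effective length trend removed). With that trend removed, of these calls only Tek (-0.95, edgeR adjusted p = 0.0390) and Ccr2 (2.30, 0.00248) still passed. Myl3 then stood at 0.10, Ryr2 at -0.46, Pdgfra at -0.98 and C1qa at 0.57. In S-PRT 1 of 7 endothelial markers fell (Tek) and 1 of 7 macrophage markers rose (Ccr2), where 1.29% of all genes were called, and all 7 macrophage markers had positive values (median 0.85). With the trend removed in S-PRT, Ccr2 still passed, Tek did not (edgeR adjusted p = 0.0808), and the macrophage median was 0.83. The fit of NR and S-PRT alone used the replicate block picked from these same data. It called 11 complex I genes, and of all 14556 genes 957 higher and 469 lower. There 5 of 7 endothelial markers fell (Cdh5, Fabp4, Kdr, Tek and Tie1) and 6 of 7 macrophage markers rose (Adgre1, C1qa, Ccr2, Cd68, Lyz2 and Ptprc). In the same fit the fibroblast marker Pdgfra and 2 of 7 smooth muscle and pericyte markers, Pdgfrb and Rgs5, fell. The summed fibroblast markers ran from 134 to 349 TPM in NR, 151 to 255 in S-PRT and 84.2 to 262 in F-PRT, the endothelial markers from 375 to 708, 263 to 372 and 294 to 1043, the macrophage markers from 76.6 to 170.1, 111 to 256 and 90.3 to 241, the smooth muscle and pericyte markers from 90.2 to 175, 83.7 to 139 and 67.8 to 187, and the lymphocyte markers from 1.86 to 4.19, 1.04 to 4.45 and 1.33 to 3.25. No listed marker was at 0 in every library of a group. The part of cell composition in the complex I values was not tested.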

How the data were processed

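Per the submitters' processing notes, the tools were RSEM, STAR, cutadapt, FastQC and edgeR; builds GRCm39 and mm10 are named without roles. Per the labels' protocols, libraries were poly(A)-selected and directional; the strand setting of the counting is not stated there. The authors deposited RSEM expected counts, TPM and effective length per gene, other columns being unused. Names came from GENCODE M21 and RefSeq (52081 of 55414 identifiers matched); 46 members are protein-coding in GENCODE and 2 (Ndufb1, Ndufb4c) in RefSeq alone, and all 48 were tested. Members and lists were chosen with earlier results of these data known. Named members are the called ones (at most 10 by p), the 3 largest and 3 smallest fold changes per comparison, the core, the extremes of level, Ndufa4 and Ndufa4l2; others complete a count.

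Expected counts were rounded and fitted with edgeR 4.0.16 in R 4.3.3 (quasi-likelihood, TMM, all 11 libraries, group only, 8 residual degrees of freedom, minimum count 10, minimum total 15). CPM are TMM-scaled; SE is the fold change over the root of F. Alternatives used DESeq2 1.42.0, limma 3.58.1 on log2(TPM + 1) or log2(TPM + 0.1), and an offset removing each library's lowess trend (span 0.3) with effective length. Scripts were tested on simulated data. Of the 1.5-fold changes put in, 35.8% were recovered in S-PRT against NR, 38.8% in F-PRT against NR and 26.9% between the modalities. A 1.5-fold change can thus go uncalled. False calls made up 4.93, 7.35 and 3.28% of the calls in those data, in the same order. Whether these rates hold for the 11 libraries, where fold changes moved with effective length, was not tested. Same-numbered NR and S-PRT libraries deviated together (correlations 0.11 to 0.22 in 4 pairs, against -0.28 to 0.30 in the 12 pairs of unlike numbers); the pairing comes from the titles' numbers and the data, and no label states it. The values of 1 member are not reported here on their own and it is left out of the plots by gene.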

Additional observations from a re-analysis of the deposited data

Results flagged for a closer look

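Ndufaf8 in S-PRT 1 stood apart from its group, at 23.18 CPM against 15.97 to 17.17 CPM in the other 3 S-PRT libraries, a gap of 0.834 of the group's range. It was the only such value among 96 groups of 4 libraries (48 genes in NR and in S-PRT), and chance alone flags about 1 in 20. S-PRT 1 was the highest S-PRT library for 38 of the 48 genes.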

How the results depend on the processing

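For F-PRT against NR, the 25 calls (19.5% of all genes called) became 0 with library size only (0.921%), on log2(TPM + 1) and log2(TPM + 0.1) (0.488 and 0.508%), with the effective length trend removed (3.39%, and 0.302% with the replicate block) and with the 2 groups alone and a replicate block (0.199%). They were 12 with mitochondrial genes left out (17.9%) and 11 with a replicate block over all libraries (10.3%), and 2 to 27 when 1 library was left out (9.56 to 26.1%). Other settings gave 27 calls with DESeq2's test (23.3%), 31 with at least 50 counts in every library (27.7%) and 26 with no count filter (10.2%). DESeq2 size factors gave 19 (18.9%) and the compared groups alone 18 (14.2%). The median of 0.41 turned to -0.0042 without the length trend and 0.0072 with the replicate block added, and was 0.28 to 0.50 with 1 library left out. For S-PRT against NR, the 0 calls (1.29%) became 3 with DESeq2's test (4.79%), 1 with no count filter (2.21%), 1 with the compared groups alone (4.01%), 11 with the replicate block there (9.8%), and 0 to 1 with 1 library left out (0.179 to 3.07%), and they remained 0 with the block over all libraries (0.412%). Its median of 0.21 was -0.042 on log2(TPM + 1), -0.043 on log2(TPM + 0.1), -0.049 without the length trend, -0.0498 with the replicate block added, and 0.15 to 0.28 with 1 library left out. For F-PRT against S-PRT, DESeq2's test gave 1 call, none appeared with 1 library left out, and the median of 0.17 was 0.39 with library size only, 0.37 on both TPM scales and 0.05 to 0.26 with 1 library left out. Library size alone moved the median of all genes by -0.14 in S-PRT against NR and by 0.19 between the modalities, and against that the members' medians stood 0.20 higher in both.

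Single genes turned negative in F-PRT against NR once the length trend was removed, and with the replicate block added: Ndufa11 to -0.016 and -0.0069, Ndufa12 to -0.084 and -0.090, Ndufv3 to -0.059 and -0.045, Ndufa8 to -0.025 and -0.011, Ndufa3 to -0.068 and -0.067, Ndufa7 to -0.0021 and -0.011, and Ndufs8 to -0.0098 without the block. No other value of a called gene changed sign. Same-numbered libraries did not deviate together in F-PRT and NR (correlations from -0.21 to 0.16) or in F-PRT and S-PRT (-0.25 to -0.15). The cause of these shifts was not tested.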

Other observations

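Regulators of mitochondrial gene expression had mostly lower values in the irradiated groups while the complex I genes had higher ones. Of 11 listed regulators, 3 fell in F-PRT against NR, where 8.67% of all genes were called lower. Ppargc1a, the coactivator of mitochondrial biogenesis, measured 62.5, 58.1, 54.5 and 51.2 CPM in the NR libraries, 51.98, 57.1, 44.7 and 54.8 in S-PRT and 31.3, 49.3 and 35.7 in F-PRT, and all 3 F-PRT libraries lay below the NR range. Its log2 fold change was -0.55 ± 0.14 (edgeR adjusted p = 0.0215). Gabpa, the DNA-binding subunit of GABP, measured 42.8, 39.4, 38.9 and 38.6 CPM in the NR libraries, 31.5, 33.4, 29.99 and 33.1 in S-PRT and 24.2, 32.2 and 30.02 in F-PRT, with every irradiated library below every NR library. It changed by -0.47 ± 0.10 in F-PRT (edgeR adjusted p = 0.0107) and by -0.32 ± 0.09 in S-PRT (0.0969). Esrrg, an oestrogen-related receptor of oxidative tissue, changed by -0.49 ± 0.13 in F-PRT (edgeR adjusted p = 0.0214). Nrf1 and Yy1, whose cores were searched in the promoters, stood at -0.01 and -0.12. In S-PRT none of the 11 passed and all 11 values were negative. Gabpa fell in the fit of NR and S-PRT alone with the replicate block, picked from these same data. These 3 genes are long (5771, 4339 and 4787 bases of effective length), and with the length trend removed their values were -0.24, -0.24 and -0.23, none of them called.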
